A study of Mus musculus with 10 samples.

Results

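Transcripts of 41 genes for glucose uptake, glycolysis, lactate and pyruvate handling, glycogen and the oxidative pentose phosphate pathway were followed in the left ventricle (LV) of mice under pressure overload. The members were taken by gene name from the 55401 gene IDs of the tables, and each of the 41 names was present. The name Aldoa is carried by a second gene ID that was at most 0.285 FPKM in any mouse, so 42 gene IDs matched in all. FPKM is the number of sequenced fragments scaled to transcript length and to the size of the library, and it allows levels to be compared between genes of different length. A mean of at least 1 FPKM was reached by 40 of the 41 members, and by 11867 genes in all. Aldoc, the brain form of aldolase, was the member left out, with at most 0.177 FPKM in any mouse.

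RNA sequencing was performed on LV tissue of 5 mice with neonatal ascending aortic constriction (nAAC) and 5 sham-operated mice, all wild type on the C57BL/6 background. The constriction or sham operation was done within a day of birth, the pups stayed with their mothers, and the LV was taken at 4 weeks of age. nAAC narrows the ascending aorta and so makes the LV pump against a raised pressure during growth. The sex of each mouse is not in the labels, and 5 of the members lie on the X chromosome (Pfkfb1, Pgk1, Pdha1, Phka1 and G6pdx).

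Glucose enters cardiomyocytes through an insulin-responsive transporter (Slc2a4) and a basal one (Slc2a1), is phosphorylated by hexokinases and is then split, oxidized or stored. Several steps of glycolysis exist as a muscle isozyme and as a form used by many tissues, encoded by separate genes, and the heart shifts from the second to the first as it matures after birth. The adult heart takes most of its energy from fatty acids, so pyruvate entry into mitochondria is held in check by pyruvate dehydrogenase kinases. Glycogen is a local glucose store, built by glycogen synthase on a glycogenin primer and broken down by phosphorylase.

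The libraries held an estimated 4.86 to 6.82 gigabases of aligned sequence in nAAC mice and 5.06 to 5.25 in sham mice. Mitochondrially encoded transcripts took 32.9 to 39.9% of TPM in nAAC mice and 33.7 to 49.8% in sham mice. Sham mice 4 and 5 had the lowest mitochondrial shares of their group, 33.7% and 38.3%, and held the highest sham value of 38 of the 40 members tested. In sham mouse 4 the deviation from the group mean also fell with transcript length (Spearman's rho = -0.659 across genes, which are not independent replicates). The median log2 fold change (FC) over all genes tested was 0.22 in FPKM as deposited and 0.00 after the libraries were rescaled by their median ratio to a common reference, so calls are given under both scalings. Markers of the cardiomyocyte were abundant in each library (13097 to 20127 FPKM summed over 8 genes in nAAC, 15204 to 26176 in sham), and 8 markers of skeletal muscle summed to at most 2.36 FPKM. In whole tissue, fewer cells of a type and less RNA per cell cannot be told apart.

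Higher transcript levels in nAAC were found for 17 of the 40 members tested (42.5%; limma with Benjamini-Hochberg adjustment over all genes, adjusted p below 0.05), where 27.1% of all genes passed in that direction. Lower levels were found for 3 members (7.5%), against 4.60% of all genes, and 20 members did not pass. The members higher in nAAC were Slc2a1, Hk1, Gpi1, Pfkl, Pfkp, Pfkfb2, Pgam1, Eno1, Slc16a1, Slc16a3, Pdk1, Gys1, Gyg, Gbe1, Phka1, G6pdx and Pgd. Pfkfb1, Pfkfb3 and Eno3 were lower. After median-ratio scaling 11 members were higher and 15 lower, where 13.2% and 12.1% of all genes passed. The 11 higher members (Slc2a1, Hk1, Pfkl, Pfkp, Pfkfb2, Pgam1, Eno1, Slc16a3, Gyg, G6pdx and Pgd) and the 3 lower ones (Pfkfb1, Pfkfb3 and Eno3) passed under both scalings. The other 12 lower calls of that scaling were Slc2a4, Pfkm, Ldhb, Mpc1, Mpc2, Pdha1, Pdhb, Dlat, Pdk2, Pdp1, Pygm and Pygb. With the level of Xist, the RNA of the inactive X chromosome, as a covariate 11 members were higher and 3 lower, where 13.4% and 3.31% of all genes passed. Without sham mice 4 and 5, whose exclusion was chosen after the data were seen, 24 were higher and 3 lower, where the shares of all genes also changed, to 43.3% and 5.31%. The nAAC and sham values did not overlap for 14 members that were higher in nAAC and 2 that were lower, against 18.9% and 3.46% of all genes. The study's threshold for differentially expressed genes adds a log2 FC above 1, on a fold scale not given in the sources used here. With an absolute log2 FC above 1 of FPKM + 1, Pfkp, Pgam1 and Slc16a3 were higher and Pfkfb1 was lower. Of all genes, 5.01% and 0.893% passed. Slc2a1 (0.9998) and Hk1 (0.987) fell just short, and they stood at 1.22 and 1.02 with a pseudocount of 0.1 in place of 1. Slc16a3 and Pfkfb1 reached the mean of 1 FPKM only through the group in which they were high, so their calls are a description. The counts of members, here and below, include both, and Pfkfb1 is 1 of the 3 lower calls. The shares of all genes include genes of this kind as well. The median log2 FC over the 40 members was 0.41 as deposited and 0.14 after median-ratio scaling. Summed over all members, transcripts amounted to 5365 to 6347 FPKM in nAAC mice and 4531 to 7471 FPKM in sham mice, so the groups overlapped in the total.

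**Figure D1:**
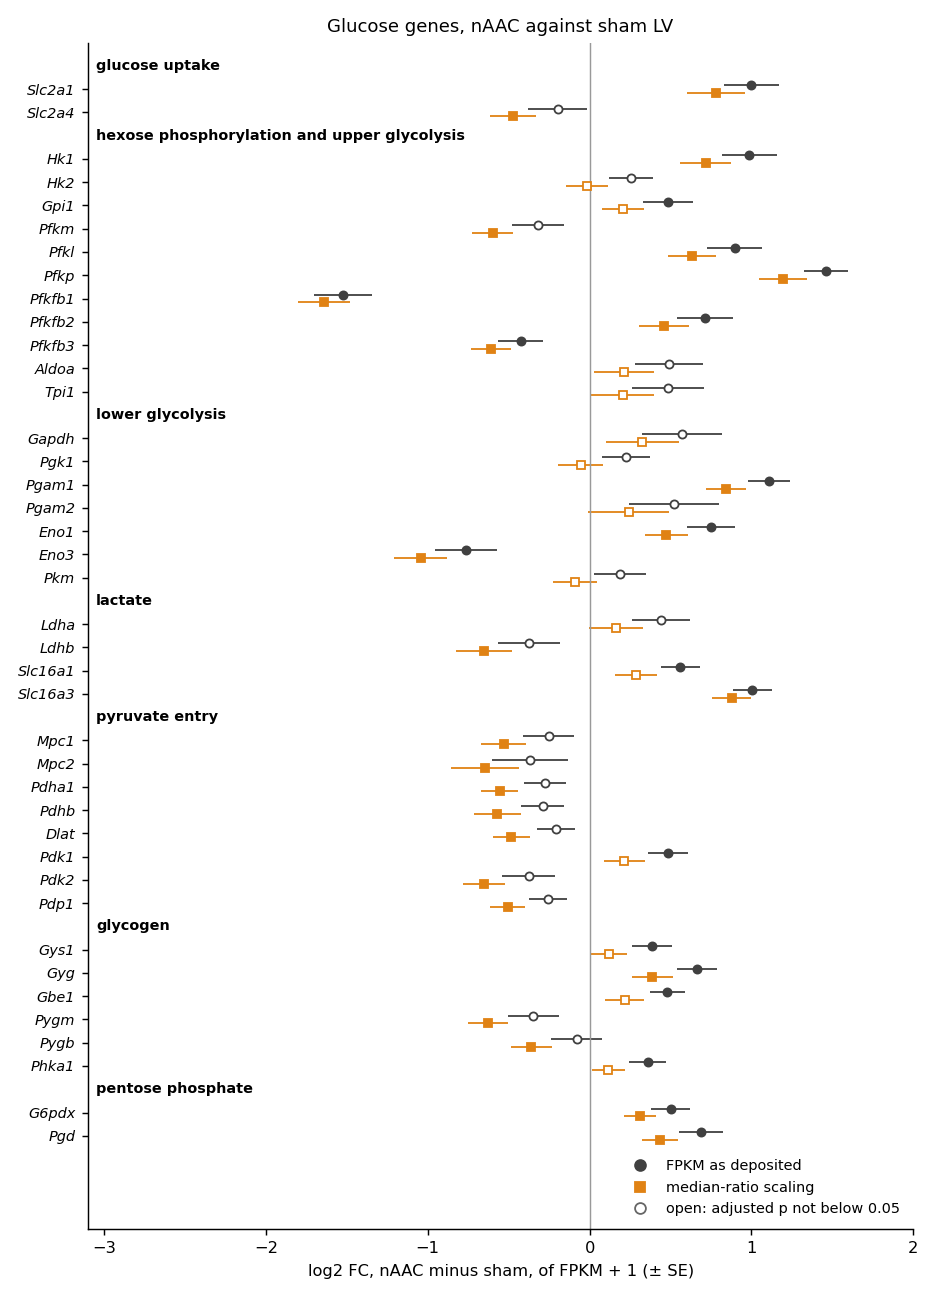
Log2 FC (nAAC minus sham, of FPKM + 1) of the 40 members tested, ordered by role, with bars for the SE (n = 5 per group). Circles are FPKM as deposited, squares are median-ratio scaling, and filled symbols passed an adjusted p below 0.05. Median-ratio scaling moves each member to the left. Under it 7 of 8 pyruvate entry genes pass as lower, against 12.1% of all genes, while Slc2a1, Hk1, Pfkl, Pfkp, Pgam1, Eno1 and Slc16a3 stay higher.

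Of the glucose transporters, the basal form rose and the insulin-responsive form did not pass. Slc2a1 (ENSMUSG00000028645, chr4:119108711-119137983) was measured at 8.64, 5.48, 8.55, 5.34 and 4.70 FPKM in the nAAC mice and 2.68, 2.01, 2.55, 3.51 and 2.80 FPKM in the sham mice, listed in the order of mouse number here and for each gene that follows, with positions in mm10 as the tables give them. Each nAAC mouse lay above each sham mouse, and nAAC mice 1 and 3 were the highest. This gave a log2 FC of 1.0 ± 0.17 (SE; limma, adjusted p = 6.99e-04), from means of 6.54 ± 1.90 against 2.71 ± 0.539 FPKM (SD, n = 5 each). Under median-ratio scaling the log2 FC stood at 0.78 (adjusted p = 0.00609). Slc2a4 (ENSMUSG00000018566, chr11:69942539-69948188) was far more abundant, at 57.3, 68.6, 68.4, 73.9 and 72.9 FPKM in the nAAC mice and 68.0, 57.3, 66.0, 102 and 110.4 FPKM in the sham mice. The groups overlapped, and sham mice 4 and 5 were the highest. With means of 68.2 ± 6.59 against 80.7 ± 23.7 FPKM (SD, n = 5 each), limma gave a log2 FC of -0.20 ± 0.18 (SE; adjusted p = 0.426). It fell by 0.47 on the log2 scale after median-ratio scaling (adjusted p = 0.027), and its log2 FC was 0.09, in the other direction, when sham mice 4 and 5 were left out (adjusted p = 0.521).

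Within a mouse, the ratio of 2 genes does not depend on the scaling between libraries. How often the ratio of 2 other genes separates the groups was not examined, so the pairs have no such share beside them. Slc2a1 made up 13.1, 7.4, 11.1, 6.74 and 6.06% in nAAC mice 1 to 5 and 3.8, 3.39, 3.71, 3.34 and 2.47% in sham mice 1 to 5 of the summed Slc2a1 and Slc2a4 FPKM. The groups did not overlap. The log2 ratio of Slc2a1 to Slc2a4 was 1.45 ± 0.26 (SE) higher in nAAC (exact permutation p = 0.0079, two-sided, the smallest that 5 against 5 mice allow, also 0.0079 after adjustment over the 9 pairs tested). The sum of both transporters was 74.7 ± 5.29 FPKM in nAAC and 83.4 ± 24.1 FPKM in sham (exact permutation p = 0.5238). A sum, unlike a ratio, depends on the scaling between libraries, and sums over genes were taken in FPKM as deposited only.

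Among the hexokinases, which trap glucose in the cell as glucose phosphate, the widely expressed Hk1 rose. Hk1 (ENSMUSG00000037012, chr10:62268855-62379908) was at 35.5, 41.5, 55.1, 35.5 and 34.2 FPKM in the nAAC mice and 16.7, 16.7, 17, 22.6 and 26.6 FPKM in the sham mice. All 5 nAAC mice exceeded all 5 sham mice. Mean levels stood at 40.4 ± 8.72 against 19.9 ± 4.53 FPKM (SD, n = 5 each), with a log2 FC of 0.99 ± 0.17 (SE; limma, adjusted p = 8.62e-04). Hk2 (ENSMUSG00000000628, chr6:82725025-82774454), the insulin-regulated muscle form, was at 21.8, 32.1, 33.8, 25.5 and 26.8 FPKM in the nAAC mice and 20.6, 20.9, 22.9, 25.4 and 25.9 FPKM in the sham mice. The means were 28.0 ± 4.93 against 23.1 ± 2.47 FPKM (SD, n = 5 each), for a log2 FC of 0.26 ± 0.14 (SE; limma, adjusted p = 0.173). Its direction depended on the scaling, at -0.01 (log2 FC) with median-ratio scaling. Hk1 accounted for 62.0, 56.4, 61.9, 58.2 and 56.0% in nAAC mice 1 to 5 and 44.7, 44.4, 42.5, 47.1 and 50.7% in sham mice 1 to 5 of Hk1 plus Hk2, so that it was the more abundant of the pair in each nAAC mouse and in 1 sham mouse. The log2 ratio of Hk1 to Hk2 was 0.76 ± 0.11 (SE) higher in nAAC (exact permutation p = 0.0079). The summed FPKM of both was 68.4 ± 13.1 FPKM in nAAC and 43.0 ± 6.86 FPKM in sham (exact permutation p = 0.0079, adjusted p = 0.0474 over the 6 gene families summed).

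Of the 40 members tested, Pfkp, the platelet-type phosphofructokinase, had the largest log2 FC upward on the log2(FPKM + 1) scale, while by the ratio of means Slc16a3 exceeded it (5.09 against 2.94 times higher in nAAC). Phosphofructokinase commits glucose to glycolysis, and its muscle (Pfkm), liver (Pfkl) and platelet subunits form mixed tetramers. Pfkp (ENSMUSG00000021196, chr13:6579768-6648777) was at 39.9, 32.5, 36.0, 25.8 and 28.7 FPKM in the nAAC mice and 11.3, 10.5, 10.7, 10 and 13 FPKM in the sham mice. The lowest nAAC value lay well above the highest sham value. This gave a log2 FC of 1.46 ± 0.13 (SE; limma, adjusted p = 5.22e-06), from means of 32.6 ± 5.61 against 11.1 ± 1.16 FPKM (SD, n = 5 each). The log2 FC under median-ratio scaling came to 1.20 (adjusted p = 7.64e-05). Pfkp overlaps the gene Pitrm1 on the opposite strand, which stood at 9.72 FPKM in nAAC and 9.67 FPKM in sham. Whether counting used the strand of a read is not stated, so reads of overlapping genes on opposite strands cannot be told apart.

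Pfkl (ENSMUSG00000020277, chr10:77986947-78010083) was at 24.5, 24.7, 28.4, 25.4 and 21.7 FPKM in the nAAC mice and 11.5, 9.62, 10.7, 19.4 and 15.3 FPKM in the sham mice. Again the groups did not overlap, with sham mouse 4 the highest of its group. With means of 25.0 ± 2.43 against 13.3 ± 4.03 FPKM (SD, n = 5 each), limma gave a log2 FC of 0.90 ± 0.17 (SE; adjusted p = 0.0016). Pfkm (ENSMUSG00000033065, chr15:98092589-98132451) was at 112, 146, 138, 153 and 128 FPKM in the nAAC mice and 171, 137, 134, 206 and 208 FPKM in the sham mice. Mean levels stood at 135 ± 16 against 171 ± 35.4 FPKM (SD, n = 5 each), with a log2 FC of -0.32 ± 0.16 (SE; limma, adjusted p = 0.146). After median-ratio scaling Pfkm fell by 0.60 (log2; adjusted p = 0.00396). As a share of the 3 genes' summed FPKM, Pfkm held 63.5 to 74.9% in nAAC mice and 86.3 to 88.2% in sham mice. Pfkp made up 12.7 to 22.6% and 4.25 to 6.85%, and Pfkl 12.2 to 14.0% and 5.97 to 8.26%. The log2 ratio of Pfkm to Pfkp changed by -1.87 ± 0.22 (SE) from sham to nAAC, and that of Pfkm to Pfkl by -1.27 ± 0.12 (SE) (exact permutation p = 0.0079 for each). As deposited, the sum of the 3 genes was 193 ± 14.3 FPKM in nAAC and 196 ± 39.5 FPKM in sham (exact permutation p = 1.0). It was not taken after median-ratio scaling.

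**Figure D2:**
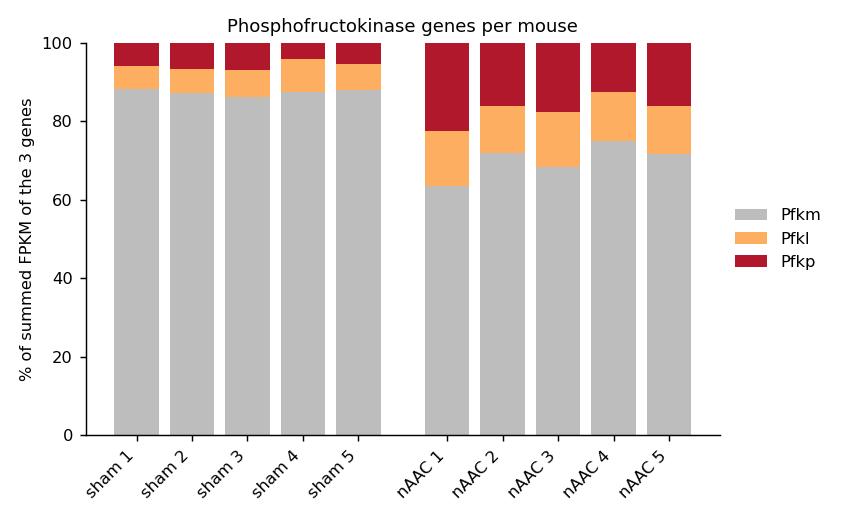
Share of Pfkm, Pfkl and Pfkp in their summed FPKM (y axis, percent), with 1 bar per mouse. Pfkm takes 86.3 to 88.2% in the sham mice and 63.5 to 74.9% in the nAAC mice, and Pfkp and Pfkl take the rest.

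The bifunctional enzymes that make and remove the sugar bisphosphate activating phosphofructokinase went in different directions. Pfkfb2, the heart form, was at 10.4, 12.7, 13.3, 16.2 and 12.7 FPKM in the nAAC mice and 8.37, 6.6, 7.25, 5.11 and 11.3 FPKM in the sham mice, with nAAC mouse 1 below sham mouse 5. The means were 13 ± 2.08 against 7.73 ± 2.33 FPKM (SD, n = 5 each), for a log2 FC of 0.71 ± 0.18 (SE; limma, adjusted p = 0.00804). Pfkfb2 passed after median-ratio scaling (adjusted p = 0.0449) but not with upper-quartile scaling or the Xist covariate (adjusted p = 0.0504 and 0.066). Pfkfb1 (ENSMUSG00000025271, chrX:150588229-150643878), the liver and muscle form, was at 0.160, 0.261, 0.0821, 0.313 and 0.295 FPKM in the nAAC mice and 1.66, 2.27, 1.81, 4.59 and 2.86 FPKM in the sham mice. It was low in both groups, and each sham mouse exceeded each nAAC mouse. This gave a log2 FC of -1.52 ± 0.18 (SE; limma, adjusted p = 4.09e-05), from means of 0.222 ± 0.0982 against 2.64 ± 1.19 FPKM (SD, n = 5 each). The mean was 11.9 times higher in sham. Pfkfb1 reached the mean of 1 FPKM only through the sham group, so its call is a description. Read coverage per base, a second column of the tables, gave a log2 FC of -0.27 for Pfkfb1 (adjusted p = 0.00227), so the size of this change depended on the unit. Pfkfb3 (ENSMUSG00000026773, chr2:11471433-11554077), the inducible form, was at 2.10, 1.08, 1.48, 1.93 and 1.67 FPKM in the nAAC mice and 2.08, 2.13, 2.43, 2.66 and 3.52 FPKM in the sham mice. The groups overlapped through nAAC mouse 1. With means of 1.65 ± 0.397 against 2.57 ± 0.585 FPKM (SD, n = 5 each), limma gave a log2 FC of -0.43 ± 0.14 (SE; adjusted p = 0.0338). The call was lost in 5 of the 10 fits that left out 1 mouse (log2 FC -0.49 to -0.34), and its adjusted p was 0.121 with TPM in place of FPKM.

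The remaining steps of upper glycolysis were led by Gpi1, glucose phosphate isomerase. Gpi1 was 162 ± 19.4 FPKM in nAAC and 116 ± 22.7 FPKM in sham (SD, n = 5 each), log2 FC 0.49 ± 0.15, adjusted p = 0.0284, and did not pass after median-ratio scaling (adjusted p = 0.28) or in 6 of the 10 fits that left out 1 mouse. Aldoa, the muscle aldolase and the most abundant of the listed gene IDs of members, stood at 1091 to 1447 FPKM in nAAC and 615 to 1269 FPKM in sham (log2 FC 0.49 ± 0.21, adjusted p = 0.0901). Tpi1, triose phosphate isomerase, ranged from 260 to 337 FPKM in nAAC and from 153 to 353 FPKM in sham (log2 FC 0.48 ± 0.22, adjusted p = 0.113). Without sham mouse 4 both Aldoa (adjusted p = 0.0317) and Tpi1 (adjusted p = 0.0098) passed as higher.

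In lower glycolysis a pair of enolases moved in opposite directions. Eno3 (ENSMUSG00000060600, chr11:70657202-70662513), the muscle enolase, was at 271, 385, 296, 388 and 289 FPKM in the nAAC mice and 513, 437, 451, 817 and 598 FPKM in the sham mice. Every nAAC mouse was below every sham mouse. Mean levels stood at 326 ± 56.1 against 563 ± 155 FPKM (SD, n = 5 each), with a log2 FC of -0.76 ± 0.19 (SE; limma, adjusted p = 0.00924). After median-ratio scaling Eno3 fell by 1.04 (log2; adjusted p = 4.77e-04). Eno1 (ENSMUSG00000063524, chr4:150236721-150248879), the enolase of most tissues and of the fetal heart, was at 108, 94.8, 93.3, 95.0 and 79.4 FPKM in the nAAC mice and 58.0, 46.4, 43.8, 64.9 and 66.9 FPKM in the sham mice. The groups did not overlap here either. The means were 94.0 ± 9.98 against 56.0 ± 10.5 FPKM (SD, n = 5 each), for a log2 FC of 0.75 ± 0.15 (SE; limma, adjusted p = 0.00214). Its log2 FC was 0.47 after median-ratio scaling and 0.35 after removal of each library's trend with GC content and transcript length (adjusted p = 0.02 and 0.0264).

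Eno1 made up 28.4, 19.8, 23.9, 19.7 and 21.6% in nAAC mice 1 to 5 and 10.2, 9.61, 8.84, 7.36 and 10.1% in sham mice 1 to 5 of Eno1 plus Eno3. The log2 ratio of Eno1 to Eno3 was 1.53 ± 0.16 (SE) higher in nAAC (exact permutation p = 0.0079). As deposited, the summed enolase FPKM was 419.9 ± 56.7 FPKM in nAAC and 619 ± 164 FPKM in sham (exact permutation p = 0.0159, adjusted p = 0.0477 over 6 families). This sum too was not taken after median-ratio scaling. Pgam1 (ENSMUSG00000011752, chr19:41911923-41918660), the common form of phosphoglycerate mutase, was at 31.3, 35.7, 39.8, 29.7 and 29.5 FPKM in the nAAC mice and 14.7, 13, 12.6, 17.1 and 16.7 FPKM in the sham mice. The values of nAAC and sham mice were separated. This gave a log2 FC of 1.11 ± 0.13 (SE; limma, adjusted p = 4.07e-05), from means of 33.2 ± 4.44 against 14.8 ± 2.06 FPKM (SD, n = 5 each). Pgam2, the muscle form, was far more abundant, at 198 to 423 FPKM in nAAC and 159 to 418 FPKM in sham (log2 FC 0.52 ± 0.28, adjusted p = 0.169). Pgam1 formed 13.7, 7.77, 9.51, 7.83 and 8.86% in nAAC mice 1 to 5 and 7.4, 7.55, 7.14, 3.94 and 5.78% in sham mice 1 to 5 of the pair, and its log2 ratio to Pgam2 was 0.64 ± 0.25 (SE) higher in nAAC (exact permutation p = 0.0079).

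**Figure D3:**
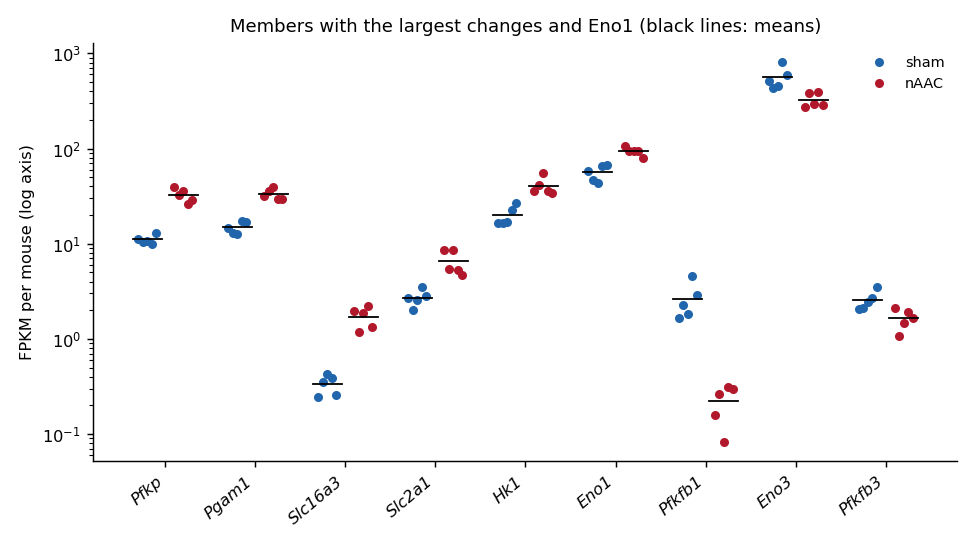
FPKM per mouse (log axis) of the members with the largest changes past the threshold, and of Eno1. Points are mice and black lines are group means. Pfkp, Pgam1, Slc16a3, Slc2a1, Hk1 and Eno1 lie higher in each nAAC mouse, Pfkfb1 and Eno3 lie lower in each, and Pfkfb3 overlaps.

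Pgk1 (phosphoglycerate kinase) and Pkm (pyruvate kinase), which form ATP in lower glycolysis, did not pass. Pgk1 was 170 ± 12.0 FPKM in nAAC and 147 ± 30.8 FPKM in sham (SD, n = 5 each), log2 FC 0.22 ± 0.15, adjusted p = 0.259. Pkm was 327 ± 17.4 and 292 ± 65.4 FPKM, log2 FC 0.19 ± 0.16, adjusted p = 0.382. Both turned slightly negative after median-ratio scaling, to -0.05 and -0.09. Gapdh was listed at only 7.85 to 13.1 FPKM in nAAC and 4.18 to 12.5 FPKM in sham (log2 FC 0.57 ± 0.25, adjusted p = 0.092). Its near-identical copies (at least 90% identity over at least 200 bases), 176 annotated genes of which 35 exceeded 1 FPKM, summed to 2398 ± 191 FPKM in nAAC and 1981 ± 552 FPKM in sham (SD, n = 5 each). The listed Gapdh value was 0.444% and 0.369% of the sum over these sequences, so the gene's own level is uncertain. Gapdh with its copies amounted to 2409 ± 193 and 1988 ± 555 FPKM (exact permutation p = 0.1508). Of the 15 members with such copies, Pgam1 and Eno1 with theirs summed to 40.1 ± 5.24 against 17.6 ± 2.46 FPKM and 105 ± 11.1 against 62.0 ± 12.2 FPKM, and both sums differed between the groups (exact permutation p = 0.0079).

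Lactate dehydrogenase showed a like change in composition. Ldha (ENSMUSG00000063229, chr7:46841475-46855627), whose subunit favours lactate formation, was at 426, 415, 356, 342 and 328 FPKM in the nAAC mice and 252, 212, 225, 393 and 321 FPKM in the sham mice, and the groups overlapped. With means of 373 ± 44.1 against 281 ± 75.5 FPKM (SD, n = 5 each), limma gave a log2 FC of 0.44 ± 0.18 (SE; adjusted p = 0.0805). Ldhb (ENSMUSG00000030246, chr6:142490249-142507957), the subunit of oxidative tissue, was at 474, 593, 549, 534 and 526 FPKM in the nAAC mice and 675, 524, 534, 1045 and 799 FPKM in the sham mice. Sham mice 4 and 5 were the highest. Mean levels stood at 535 ± 43.1 against 715 ± 216 FPKM (SD, n = 5 each), with a log2 FC of -0.37 ± 0.19 (SE; limma, adjusted p = 0.156). Ldha amounted to 47.3, 41.1, 39.4, 39.0 and 38.4% in nAAC mice 1 to 5 and 27.2, 28.8, 29.7, 27.3 and 28.7% in sham mice 1 to 5 of Ldha plus Ldhb, with no overlap between the groups. The log2 ratio of Ldha to Ldhb was 0.82 ± 0.10 (SE) higher in nAAC (exact permutation p = 0.0079), while neither gene passed on its own in FPKM as deposited. The sum as deposited was 908 ± 59.1 FPKM in nAAC and 996 ± 291 FPKM in sham (exact permutation p = 0.6667).

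The lactate transporters both rose. Slc16a1, the form that carries lactate and ketones in heart muscle, was 53.9 ± 6.27 FPKM in nAAC and 36.2 ± 3.72 FPKM in sham (SD, n = 5 each), log2 FC 0.56 ± 0.12, adjusted p = 0.00382, with no call after median-ratio scaling (adjusted p = 0.129). Slc16a3 (ENSMUSG00000025161, chr11:120948480-120960868), the form of glycolytic cells, was scarce, at 1.95, 1.18, 1.86, 2.20 and 1.34 FPKM in the nAAC mice and 0.247, 0.356, 0.424, 0.392 and 0.257 FPKM in the sham mice. The lowest nAAC mouse, at 1.18 FPKM, was above the highest sham mouse, at 0.424 FPKM. The means were 1.71 ± 0.429 against 0.335 ± 0.0799 FPKM (SD, n = 5 each), for a log2 FC of 1.01 ± 0.12 (SE; limma, adjusted p = 5.45e-05). By the means Slc16a3 was 5.09 times higher in nAAC. It reached the mean of 1 FPKM only through the nAAC group, so its call is a description. The log2 FC was 0.57 in read coverage and 0.56 after removal of the GC and length trend, with adjusted p values of 1.22e-05 and 0.00957. Slc16a3 overlaps Csnk1d on the opposite strand, at 16.7 FPKM in nAAC and 12.8 FPKM in sham. Slc16a1 took 95.6 to 98.2% of the pair in nAAC mice and 98.8 to 99.3% in sham mice. The log2 ratio of FPKM differed by -1.77 ± 0.26 (SE; exact permutation p = 0.0079). With the GC and length trend removed the difference was -0.12 and not past the threshold. That value is on the log2(FPKM + 1) scale, which shrinks changes of a gene as scarce as Slc16a3. The 2 differences therefore differ in the pseudocount as well as in the trend.

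**Figure D4:**
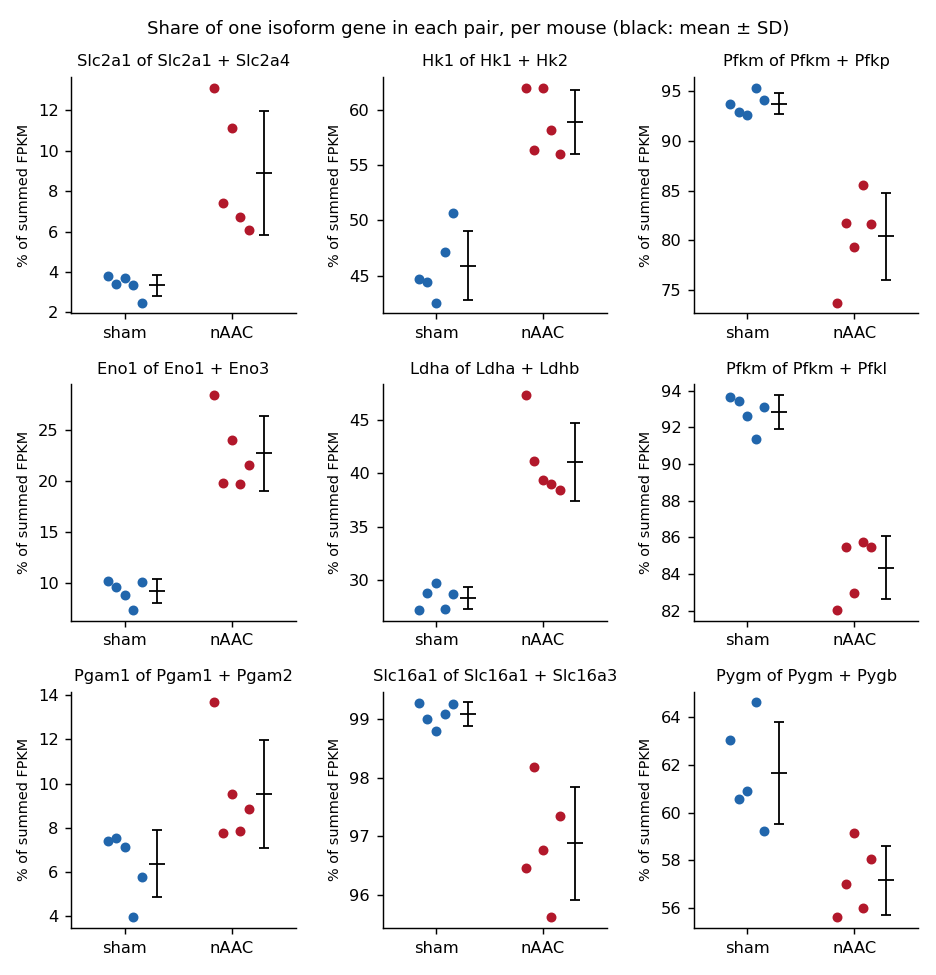
Percent of the first gene in the summed FPKM of 9 gene pairs, with 1 point per mouse and the mean ± SD in black. The y axes do not start at 0. In each pair the 5 nAAC mice and the 5 sham mice occupy separate ranges. The margin is narrow for Pygm (at most 59.15% in nAAC, at least 59.23% in sham). It is also narrow for Pgam1 (at least 7.77% in nAAC, at most 7.55% in sham). How often pairs of other genes separate was not examined. Of single genes tested, 18.9% did not overlap with nAAC higher and 3.46% with nAAC lower.

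Genes of pyruvate entry into mitochondria did not pass in FPKM as deposited, other than Pdk1. Pdk1, a pyruvate dehydrogenase kinase that is induced under low oxygen, was 32.5 ± 3.09 FPKM in nAAC and 23.0 ± 3.21 FPKM in sham (SD, n = 5 each), log2 FC 0.48 ± 0.12, adjusted p = 0.00979. Pdk2, the kinase expressed most evenly among tissues, was 83.8 ± 9.17 and 111 ± 27.2 FPKM (log2 FC -0.37 ± 0.16, adjusted p = 0.0977). The other 6 had log2 FCs below 0 as deposited, none of which passed. These were the pyruvate carrier subunits Mpc1 (-0.25 ± 0.16, adjusted p = 0.238) and Mpc2 (-0.37 ± 0.24, adjusted p = 0.246), the pyruvate dehydrogenase subunits Pdha1 (-0.28 ± 0.13, adjusted p = 0.115), Pdhb (-0.29 ± 0.13, adjusted p = 0.113) and Dlat (-0.21 ± 0.12, adjusted p = 0.194), and the activating phosphatase Pdp1 (-0.26 ± 0.12, adjusted p = 0.115). After median-ratio scaling 7 of the 8 genes were lower (87.5%, against 12.1% of all genes), with log2 FCs from -0.65 (Pdk2) to -0.48 (Dlat). With the GC and length trend removed 6 were lower (75.0%, against 16.1% of all genes). With the Xist covariate none of the 8 passed in either direction, where 13.4% of all genes passed as higher and 3.31% as lower. Pdk1 no longer passed after median-ratio scaling (adjusted p = 0.251), nor did it with the trend removed or the Xist covariate (adjusted p = 0.072 and 0.0741). Mpc1 has 3 copies of at least 90% identity, which summed to 350 ± 20.8 FPKM in nAAC and 346 ± 95.2 FPKM in sham. Nearly all of this lay in Mpc1-ps (100% identity over 261 bases, means of 350 and 346 FPKM). Mpc1 itself stood at 166 ± 13.4 and 201 ± 47.1 FPKM, so its level is uncertain.

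Of the glycogen genes, 4 of 6 rose as deposited (66.7%), where 27.1% of all genes passed as higher. After median-ratio scaling 1 was higher and 2 were lower (16.7% and 33.3%), where 13.2% and 12.1% of all genes passed. Gyg, the glycogenin that primes glycogen, was 95.7 ± 10.4 FPKM in nAAC and 59.8 ± 5.22 FPKM in sham (SD, n = 5 each), log2 FC 0.67 ± 0.12, adjusted p = 0.00133, and passed after median-ratio scaling too (adjusted p = 0.0399). Gbe1, the branching enzyme, was 17.3 ± 1.84 and 12.1 ± 0.863 FPKM (log2 FC 0.48 ± 0.11, adjusted p = 0.00482). Gys1, the muscle glycogen synthase, was 22.8 ± 1.36 and 17.4 ± 2.80 FPKM (log2 FC 0.38 ± 0.13, adjusted p = 0.0334). Phka1, a regulatory subunit of phosphorylase kinase, was 7.80 ± 0.630 and 5.89 ± 0.888 FPKM (log2 FC 0.36 ± 0.11, adjusted p = 0.0296). Calls for Gbe1, Gys1 and Phka1 were not made after median-ratio scaling. Leaving out 1 mouse ended the Gys1 call in 8 of 10 fits and the Phka1 call in 7, and Gys1 turned to a log2 FC of -0.01 once the GC and length trend was removed. Gys1 overlaps Ruvbl2 on the opposite strand (8.02 and 6.04 FPKM).

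The phosphorylases, which release glucose phosphate from glycogen, did not pass as deposited. Pygm, the muscle form, was 153 to 202 FPKM in nAAC and 188 to 303 FPKM in sham (log2 FC -0.35 ± 0.16, adjusted p = 0.106), and the brain form Pygb was 122 to 159 FPKM and 122 to 208 FPKM (log2 FC -0.08 ± 0.16, adjusted p = 0.722). After median-ratio scaling both were lower (-0.63 and -0.36, adjusted p = 0.00261 and 0.0497), while Pygb had a log2 FC above 0 in TPM, without sham mouse 5 and without sham mice 4 and 5. Pygm made up 55.6, 57.0, 59.2, 56.0 and 58.1% in nAAC mice 1 to 5 and 63.0, 60.6, 60.9, 64.6 and 59.2% in sham mice 1 to 5 of the pair, a small shift of -0.27 ± 0.07 in the log2 ratio (SE; exact permutation p = 0.0079).

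G6pdx and Pgd, the NADPH-forming dehydrogenases of the pentose phosphate pathway, both rose. G6pdx was 2.81 ± 0.543 FPKM in nAAC and 1.68 ± 0.274 FPKM in sham (SD, n = 5 each), log2 FC 0.50 ± 0.12, adjusted p = 0.0072. Pgd was 13.4 ± 1.94 and 7.98 ± 1.42 FPKM (log2 FC 0.69 ± 0.14, adjusted p = 0.00201). No nAAC value overlapped a sham value for either gene, and both passed after median-ratio scaling (adjusted p = 0.0336 and 0.0103). G6pdx overlaps Ikbkg on the opposite strand, at 7.49 and 6.68 FPKM, and its call was lost with the Xist level as a covariate (adjusted p = 0.0765) and with the GC and length trend removed (log2 FC 0.18, adjusted p = 0.152).

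Promoter sequence was examined for 39 of the 41 members, in the 250 bases before each RefSeq start site (GRCm38.p6). The hypoxia-inducible factors bind the letters ACGTG or GCGTG, and GCGTG is also the core that the aryl hydrocarbon receptor binds, a factor that the study also examined. On either strand, ACGTG was found in 33.3% of the members' windows, in 22.3% of those of the genes tested and in 17.4% of all windows. GCGTG was found in 59.0%, 46.6% and 31.8%, and CACGTG, the E-box that contains ACGTG, in 10.3%, 8.63% and 6.43%. Of the 11 members higher under both scalings, 9 held GCGTG and 3 held ACGTG, and of the 3 lower ones, 2 held GCGTG and 1 held ACGTG. The windows of Slc2a1, Pfkp, Eno1 and Eno3 are shown. These genes belong to the 3 of the 5 chosen pairs whose ratio differed most between the groups (Pfkm and Pfkp, Eno1 and Eno3, Slc2a1 and Slc2a4). Slc16a1 and Slc16a3, outside those 5, differed by -1.77 (log2). Of the same 3 pairs, Slc2a4 had no window, and that of Pfkm, with 2 ACGTG and 0 GCGTG, is not printed. Capitals mark ACGTG and GCGTG on either strand (CACGT and CACGC on the strand printed when the match is on the other). A match is a description of the letters only.
Slc2a1 (chr4:119108495-119108744, plus strand): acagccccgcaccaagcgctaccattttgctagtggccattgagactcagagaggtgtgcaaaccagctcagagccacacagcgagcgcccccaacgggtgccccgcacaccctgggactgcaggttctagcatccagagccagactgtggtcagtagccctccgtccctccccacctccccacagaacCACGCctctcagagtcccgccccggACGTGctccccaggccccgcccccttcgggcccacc
Pfkp (chr13:6648772-6649021, minus strand): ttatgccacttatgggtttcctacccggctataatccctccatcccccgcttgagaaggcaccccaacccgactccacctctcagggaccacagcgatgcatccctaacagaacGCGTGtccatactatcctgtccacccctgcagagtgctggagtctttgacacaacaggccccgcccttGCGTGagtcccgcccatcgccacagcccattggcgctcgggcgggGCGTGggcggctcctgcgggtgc
Eno1 (chr4:150236458-150236707, plus strand): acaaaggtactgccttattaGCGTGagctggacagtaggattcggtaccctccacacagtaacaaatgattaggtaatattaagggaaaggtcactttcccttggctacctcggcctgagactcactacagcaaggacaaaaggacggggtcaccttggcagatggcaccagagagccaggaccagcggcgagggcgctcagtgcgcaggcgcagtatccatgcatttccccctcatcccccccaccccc
Eno3 (chr11:70656926-70657175, plus strand): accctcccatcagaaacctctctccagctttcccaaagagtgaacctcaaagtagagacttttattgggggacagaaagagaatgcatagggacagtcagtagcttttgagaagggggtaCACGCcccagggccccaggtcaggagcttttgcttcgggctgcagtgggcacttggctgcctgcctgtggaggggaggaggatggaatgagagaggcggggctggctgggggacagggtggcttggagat
Eno1 and Eno3 each held 1 GCGTG match although they moved in opposite directions, Pfkp held 3 and Slc2a1 held 1 of each motif.

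Other genes of glucose metabolism were read from 5 lists of 98 genes that hold no member, of which 81 were tested. Of these, 19 were higher and 7 lower as deposited (23.5% and 8.6%), where 27.1% and 4.60% of all genes passed. After median-ratio scaling 9 were higher and 20 lower (11.1% and 24.7%), where 13.2% and 12.1% of all genes passed. The counts of the single lists below are read against the same shares of all genes. Of the 5 tested genes in the list of other glycolysis genes, 2 rose under both scalings, Tigar, a sugar bisphosphatase (log2 FC 0.62 ± 0.14, adjusted p = 0.0043), and Adpgk, an ADP-dependent sugar kinase (log2 FC 0.61 ± 0.11, adjusted p = 7.71e-04), and the other 3 did not pass.

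Of the other glycogen genes, 4 of 20 rose and 1 fell as deposited, and 3 were higher and 7 lower after median-ratio scaling. Ugp2, which makes the UDP-glucose that glycogen synthase uses, was at 173, 186, 181, 149.8 and 184 FPKM in the nAAC mice and 59.4, 71.0, 72.7, 75.9 and 67.9 FPKM in the sham mice. The groups were far apart. This gave a log2 FC of 1.32 ± 0.12 (SE; limma, adjusted p = 5.54e-06), from means of 175 ± 14.7 against 69.4 ± 6.28 FPKM (SD, n = 5 each). Stbd1, a glycogen-binding protein (log2 FC 0.99 ± 0.15, adjusted p = 2.6e-04), Pygl, the liver phosphorylase (log2 FC 0.46 ± 0.13, adjusted p = 0.0174, and adjusted p = 0.0906 after median-ratio scaling), and Ppp1r3c, a glycogen-targeting phosphatase subunit (log2 FC 0.98 ± 0.17, adjusted p = 9.68e-04), were higher as deposited as well, and Ugp2, Stbd1 and Ppp1r3c passed under both scalings. Phkg1, the muscle catalytic subunit of phosphorylase kinase, was at 0.558, 0.823, 0.659, 0.688 and 0.636 FPKM in the nAAC mice and 5.68, 5.05, 4.14, 7.90 and 6.57 FPKM in the sham mice. Its highest nAAC value, 0.823 FPKM, was below its lowest sham value, 4.14 FPKM. With means of 0.673 ± 0.0969 against 5.87 ± 1.44 FPKM (SD, n = 5 each), limma gave a log2 FC of -2.01 ± 0.14 (SE; adjusted p = 5.33e-07). Phkg1 was lower after median-ratio scaling too (log2 FC -2.18). It reached the mean of 1 FPKM only through the sham group, so these calls too are a description.

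Of the other pyruvate genes, 2 of 14 were higher and 2 lower as deposited (14.3% each), against 1 and 6 after median-ratio scaling (7.1% and 42.9%). Pdk3 (log2 FC 0.59 ± 0.12, adjusted p = 0.0025) rose under both scalings. Pyruvate carboxylase Pcx (log2 FC 0.50 ± 0.17, adjusted p = 0.0364) rose as deposited and was not called after median-ratio scaling (adjusted p = 0.18) or with the GC and length trend removed (adjusted p = 0.784). The pyruvate dehydrogenase phosphatase Pdp2 (log2 FC -0.64 ± 0.11, adjusted p = 7.01e-04) and the shared dehydrogenase subunit Dld (log2 FC -0.51 ± 0.14, adjusted p = 0.0133) fell under both. Pdk4, the kinase induced by fasting and fatty acids, was at 96.0, 39.6, 22.8, 123 and 36.1 FPKM in the nAAC mice and 86.0, 101, 83.4, 78.5 and 95.3 FPKM in the sham mice. The nAAC mice were spread widely, with mouse 1 within the sham range, mouse 4 above it and mice 2, 3 and 5 below it. Pdk4 did not pass as deposited (log2 FC -0.75 ± 0.37, limma, adjusted p = 0.139) or after median-ratio scaling (adjusted p = 0.0525).

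Of 15 genes for the pentose, hexosamine and polyol routes, 4 rose and 1 fell as deposited (26.7% and 6.7%), against 2 and 1 after median-ratio scaling (13.3% and 6.7%). Transketolase Tkt (log2 FC 0.66 ± 0.14, adjusted p = 0.0028) was higher under both. H6pd, the pentose pathway dehydrogenase of the endoplasmic reticulum (log2 FC 0.54 ± 0.18, adjusted p = 0.0378), was not called after median-ratio scaling (adjusted p = 0.219) or with the trend removed (adjusted p = 0.698). Sord, sorbitol dehydrogenase, fell under both (log2 FC -0.80 ± 0.20, adjusted p = 0.00777). Among 27 regulators 7 rose and 3 fell as deposited (25.9% and 11.1%), and 1 was higher and 6 lower after median-ratio scaling (3.7% and 22.2%). Myc (log2 FC 0.91 ± 0.19, adjusted p = 0.00274), a transcription factor that activates glycolytic genes, was the regulator higher under both, and it reached the mean of 1 FPKM only through the nAAC group. Egln3 (log2 FC 0.63 ± 0.17, adjusted p = 0.0141), an oxygen-sensing prolyl hydroxylase, was not called after median-ratio scaling (adjusted p = 0.2). Txnip, which restrains glucose uptake, was lower (log2 FC -1.05 ± 0.26, adjusted p = 0.00757), as was Tbc1d4 (log2 FC -0.73 ± 0.15, adjusted p = 0.00321), which holds Slc2a4 inside the cell. Mef2a, a muscle transcription factor that drives Slc2a4, was lower too (log2 FC -0.60 ± 0.17, adjusted p = 0.016), and all 3 were also lower after median-ratio scaling.

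**Figure D5:**
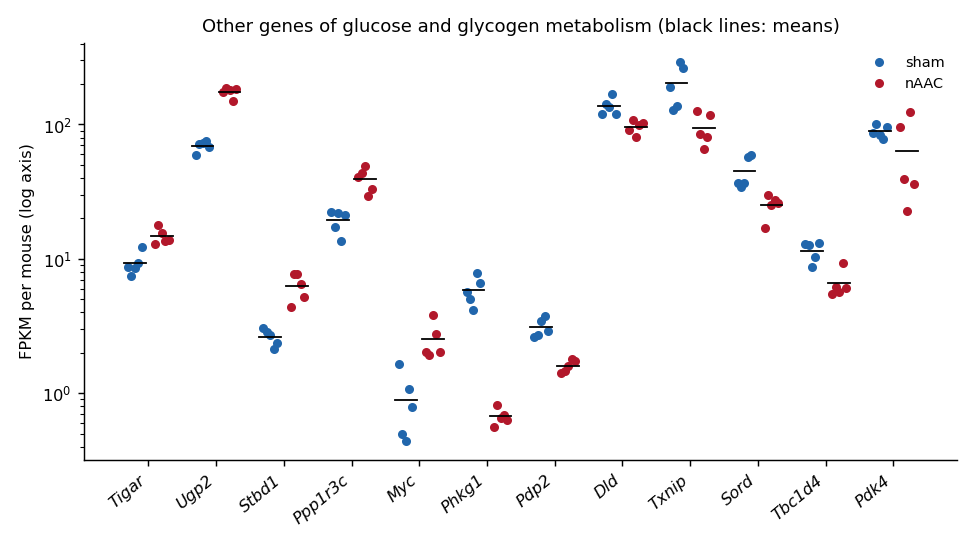
FPKM per mouse (log axis) of 12 genes of glucose and glycogen metabolism that are not members. Points are mice and black lines are group means. Ugp2 and Phkg1 show the widest separation, and Pdk4 is spread below, within and above the sham range in the nAAC mice.

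Markers of other cell types did not all move alike, and their counts are read against the shares of all genes. Those were 27.1% higher and 4.60% lower as deposited, and 13.2% and 12.1% after median-ratio scaling. Of 6 fibroblast markers 5 were higher in nAAC as deposited and 3 after median-ratio scaling, and their summed FPKM was 481 to 864 in nAAC mice and 344 to 371 in sham mice. All 4 smooth muscle markers were higher as deposited and 3 after median-ratio scaling (65.0 to 149 against 47.0 to 65.3 FPKM summed). Among them Cnn1 reached the mean of 1 FPKM only through the nAAC group. Of 6 endothelial markers 2 were higher as deposited and 1 after median-ratio scaling (131 to 237 against 115 to 185 FPKM). None of the 5 tested macrophage and leukocyte markers and none of the 5 tested erythroid markers passed (78.5 to 167 against 66.2 to 134 FPKM, and 3396 to 8802 against 2292 to 8661 FPKM). Of 8 cardiomyocyte markers 2 were higher (Actc1 and Actn2) and 2 lower (Tnni3 and Pln) as deposited. After median-ratio scaling Actn2 was higher and Myh6, Tnni3 and Pln were lower. Of the atrial markers Nppa was higher, whereas Myl7, Myl4 and Sln were not called and reached their highest levels in nAAC mice 2 and 3 (up to 128 FPKM for Myl4). Of 6 adipocyte markers Cidea was called higher as deposited but not after median-ratio scaling. Adipoq, Plin1, Ucp1 and Lep were at most 0.371 FPKM in any mouse, and Cfd was at most 0.489 FPKM in nAAC mice and 0.0968 to 2.38 FPKM in sham mice. The part of these cell types in the changes of the glucose genes was not tested.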

How the data were processed

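LV RNA of 10 mice (5 nAAC, 5 sham, grouped by sample title) was sequenced, and the authors deposited FPKM, TPM and mean per-base read coverage by gene, separately for every mouse. Per the labels, libraries were made with a NEBNext Ultra RNA kit and the build was mm10. The aligner and the tool that counted reads are not given in the sources used here. Rows sharing a gene ID were summed. Coordinates matched GENCODE M21 for 99.42% of shared genes. Read counts were not used here, so depth is an estimate from the most common ratio of FPKM to coverage in each library. Only 12.1 to 16.5% of the genes above 1 FPKM held that ratio. No 2 tables were identical (highest Pearson's r on the log scale 0.995), and p-values measure the spread between mice.

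Genes whose FPKM averaged 1 or more over the 10 mice were compared as log2(FPKM + 1) with limma 3.58.1 (R 4.3.3, empirical Bayes with a trend, two-sided, Benjamini-Hochberg over 11867 genes). A fold change on this scale understates that of scarce genes. Isoform pairs were compared by log2 ratios of FPKM per mouse with exact permutation tests. Pair p-values were adjusted over 9 pairs, and Aldoa with Aldoc was left out because Aldoc was listed at 0 in some mice. Copies of members were found with blastn 2.17.0. Promoter windows came from RefSeq (GRCm38.p6, 39 of 41 members matched by symbol). In simulated data with 200 changed genes the fit was tested on known answers. Every member is named, with values per mouse for the 5 chosen pairs and for the members with the 5 largest changes in each direction past the threshold. Pfkfb2 and Pfkl were shown per mouse beyond that rule. Of the other lists, the 2 largest and 2 smallest log2 FCs past the threshold and Pdk4 are named. Pygl, Ppp1r3c and Mef2a were added to these after their values were seen. An item of the list of other glycolysis genes is not reported here, and the list was counted without it. Members and lists were chosen with earlier results of these data known. Results were recomputed with median-ratio or upper-quartile scaling, a total without mitochondrial genes, TPM, no filter, a pseudocount of 0.1, a replicate block, an Xist covariate, GC and length trends removed, other thresholds and leaving out each mouse. Coverage in place of FPKM and sham mice 1 to 3 alone were added after the data were seen.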

Additional observations from a re-analysis of the deposited data

Results flagged for a closer look

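In groups of 5 mice, a value was singled out where its gap to the nearest other mouse was more than 0.71 of the group's range on the log2(FPKM + 1) scale. Of 98 groups of values examined, 3 met this, where chance gives about 4.9. Slc16a1 was highest in sham mouse 4 (5.45 against 5.12 to 5.18 in the other sham mice, a gap of 0.83 of the range). Pdp1 was lowest in sham mouse 1 (3.03 against 3.41 to 3.51, a gap of 0.81). Pygb was highest in sham mouse 5 (7.71 against 6.95 to 7.15, a gap of 0.73).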

How the results depend on the processing

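The count of members higher in nAAC (17 as deposited) was 11 with median-ratio scaling, 10 with upper-quartile scaling, 11 with the Xist covariate and 3 with the fold change threshold (13.2, 13.7, 13.4 and 5.01% of all genes, against 27.1%). The count of lower members (3) was 15, 14 and 14 with median-ratio scaling, upper-quartile scaling and GC and length trends removed, and 1 with the fold change threshold (12.1, 11.5, 16.1 and 0.893% of all genes, against 4.60%). Leaving out 1 mouse gave 14 to 23 higher members, with 23 without sham mouse 4, and 2 to 4 lower (20.2 to 33.1% and 3.59 to 5.23% of all genes). The direction changed for Hk2 (-0.015, -0.00143 and -0.078 with median-ratio scaling, upper-quartile scaling and trends removed), Pgk1 (-0.055 and -0.0411 with the 2 scalings), Pkm (-0.092, -0.078 and -0.22 in the same order as Hk2), Gys1 (-0.015 with trends removed), Pygb (0.091 in TPM, -0.14 to 0.051 over the fits that left out 1 mouse with the latter without sham mouse 5, 0.075 with sham mice 1 to 3 only) and Slc2a4 (0.094 with sham mice 1 to 3 only). The cause was not tested. Replicate numbers did not pair the mice (correlations of deviations from -0.316 to 0.192). With the replicate block 14 members were higher and 3 lower (24.7% and 4.19% of all genes), and 3426 genes passed in place of 3757. Over 5 pairs an exact sign-flip permutation test cannot go below p = 0.0625, which the block gave for the log2 ratios of Slc2a1/Slc2a4 (1.45), Hk1/Hk2 (0.76), Pfkm/Pfkp (-1.87), Eno1/Eno3 (1.53) and Ldha/Ldhb (0.82). These 5 differences kept their direction and stayed past the threshold with a pseudocount of 1, TPM, trends removed and each mouse left out. Depth limits the scarce members, above all Slc16a3, Pfkfb1, Pfkfb3 and G6pdx, whose read counts were not used here.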
